A study of Homo sapiens with 4 samples.

Results

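The UGT1A locus of human chromosome 2 encodes a set of UDP-glucuronosyltransferases, and 7 of the 15037 genes in the count table carried a UGT1A symbol. These were UGT1A1, UGT1A3, UGT1A5, UGT1A6, UGT1A7, UGT1A8 and UGT1A9, taken as the rows whose symbol starts with UGT1A and a digit. UGT1A4 and UGT1A10 had no row and were not analysed here. The locus was selected on its measured difference in the comparison described below, so its fold changes are given as a description with no test. RNA came from A549, an established human cell line that the labels describe as epithelial cells of a lung carcinoma. There were 4 libraries, 2 from cells with a knockdown of PSME4 (PSME4 KD) and 2 from control cells, whose genotype the labels give as RFP KD (control KD). PSME4 caps the core particle of the proteasome, and the series asked how its depletion changes messenger RNA levels. The labels name no other allele or agent, and they do not say how the knockdown was made. Nor do they say whether a group's libraries are from separate cultures, so the p-values below rest on a spread between libraries that may be only technical.

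UDP-glucuronosyltransferases of the endoplasmic reticulum join glucuronic acid, donated by UDP-glucuronic acid, to drugs, hormones, bile pigments and dietary phenols, which makes them water-soluble for export. The UGT1A genes are built as a row of alternative first exons, each with its own promoter, spliced to the same downstream exons. The first exon encodes the part of the enzyme that binds the acceptor, and the shared exons encode the part that binds the sugar donor. UGT1A1 conjugates bilirubin, UGT1A6 small flat phenols, UGT1A9 bulkier phenols such as propofol, and UGT1A7 and UGT1A8 are known mainly from tissues outside the liver. Receptors and factors known to act on these promoters include the aryl hydrocarbon receptor, NRF2, PPARA and the liver-enriched factor HNF4A.

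All 7 genes lie on the plus strand of chromosome 2 and end at the same place. By RefSeq on GRCh38 their starts run from 233617633 (UGT1A8) through 233671898 (UGT1A9), 233681901 (UGT1A7), 233691702 (UGT1A6), 233712907 (UGT1A5) and 233729042 (UGT1A3) to 233760270 (UGT1A1), with the common end at 233773300. In GENCODE 29 each gene has 5 exons, and 1478 bases of the exons from 233767034 to 233773299 are identical in all 7. The first of these shared coding exons, exon 2, is shown because a read inside it cannot be given to any member.

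Exon 2 of all 7 genes, chr2:233767034-233767165, plus strand: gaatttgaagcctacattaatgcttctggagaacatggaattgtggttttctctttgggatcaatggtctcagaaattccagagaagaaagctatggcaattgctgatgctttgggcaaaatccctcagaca

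The first exons, 855 to 1000 bases long, are what sets the members apart. The 904 bases of UGT1A1 (233760248 to 233761151) and the 1000 bases of UGT1A6 (233692866 to 233693865) matched the first exons of the other members at 61.0% to 68.5% of aligned bases. The first exons of UGT1A7 (233681938 to 233682792) and UGT1A9 (233671853 to 233672789) matched each other at 92.3%, and those of UGT1A8 and UGT1A9 at 92.9%. The longest run that UGT1A7 and UGT1A9 share without a mismatch was 62 bases and is shown because a read within it fits both genes.

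Coding first exon of UGT1A9, chr2:233672103-233672164, and of UGT1A7, chr2:233682106-233682167, plus strand: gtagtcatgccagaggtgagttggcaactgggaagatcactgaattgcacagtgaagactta

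The promoters of UGT1A9 and UGT1A7 are shown because these neighbours, alike in sequence, gave different values below. RefSeq promoter windows from 250 bases before to 50 bases after the start were matched for all 7 members, with 8 windows in all since UGT1A6 has 2 starts. The windows of UGT1A9 and UGT1A7 were identical at 243 of 291 aligned bases (83.5%). Capitals mark the 57 bases of each that differ or have no partner in the other.

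UGT1A9, chr2:233671648-233671947, plus strand: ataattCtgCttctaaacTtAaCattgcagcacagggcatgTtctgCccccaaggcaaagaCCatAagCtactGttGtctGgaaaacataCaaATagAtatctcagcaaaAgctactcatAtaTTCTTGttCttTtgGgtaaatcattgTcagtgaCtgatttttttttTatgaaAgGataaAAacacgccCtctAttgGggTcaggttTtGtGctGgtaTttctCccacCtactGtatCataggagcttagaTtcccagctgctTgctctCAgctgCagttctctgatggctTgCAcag
UGT1A7, chr2:233681651-233681950, plus strand: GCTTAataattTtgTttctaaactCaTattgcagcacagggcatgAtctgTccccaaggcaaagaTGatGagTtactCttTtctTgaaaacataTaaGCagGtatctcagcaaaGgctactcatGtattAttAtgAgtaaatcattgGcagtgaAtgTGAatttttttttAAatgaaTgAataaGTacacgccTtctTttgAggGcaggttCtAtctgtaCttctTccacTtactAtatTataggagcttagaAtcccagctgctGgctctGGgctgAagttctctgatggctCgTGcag

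Both hold the core of the xenobiotic response element, GCGTG on the minus strand, which reads cacgc above, at −65 from the start in UGT1A9 and −63 in UGT1A7. The UGT1A6 windows are shown because UGT1A6 had the largest fold change of the members that passed the count filter. The window of its upstream start holds GCGTG at −200. The window of its downstream start, near the first coding exon, holds the antioxidant response element core TGACNNNGC and the HNF4 core CAAAGT. Capitals mark these matches.

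UGT1A6, upstream start, chr2:233691452-233691751, plus strand: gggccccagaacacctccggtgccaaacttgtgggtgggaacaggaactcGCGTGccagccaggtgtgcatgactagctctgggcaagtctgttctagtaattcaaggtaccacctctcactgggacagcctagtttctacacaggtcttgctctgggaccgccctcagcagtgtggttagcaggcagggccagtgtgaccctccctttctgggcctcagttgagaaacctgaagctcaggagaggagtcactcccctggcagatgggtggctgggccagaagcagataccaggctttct
UGT1A6, downstream start, chr2:233692640-233692939, plus strand: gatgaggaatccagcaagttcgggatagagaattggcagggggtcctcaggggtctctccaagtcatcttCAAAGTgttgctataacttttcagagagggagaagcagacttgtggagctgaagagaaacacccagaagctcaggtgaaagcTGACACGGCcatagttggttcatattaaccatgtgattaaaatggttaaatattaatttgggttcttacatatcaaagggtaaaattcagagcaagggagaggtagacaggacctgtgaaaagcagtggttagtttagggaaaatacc

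GCGTG was found on either strand in 36.5% of all 35116 RefSeq promoter windows of this length, TGACNNNGC in 13.3% and CAAAGT in 11.9%. The AP-1 site TGANTCA, found in 7.71% of them, had no match in any of the 8 UGT1A windows. Windows of members not shown held these strings too: GCGTG in UGT1A8 and UGT1A3, TGACNNNGC in UGT1A5 and CAAAGT in UGT1A1. The UGT1A1 window held no GCGTG. A match is a string of letters and was not tested as a binding site.

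PSME4 mRNA itself was measured at 158 and 180 CPM (counts scaled to library size by TMM) in the control KD libraries against 75.3 and 85.1 CPM, a decrease of 2.11-fold (adjusted p = 0.000855, Benjamini-Hochberg, from the quasi-likelihood test of edgeR). With 1 library left out, its log2 fold change lay between −1.17 and −0.97, and it passed the threshold of 0.05 only without PSME4 KD 2. Control KD libraries had 11766371 and 11769392 counts, PSME4 KD libraries 15208588 and 14845701. Epithelial keratin 18 (2820 to 4119 CPM), keratin 8 (309 to 354 CPM) and E-cadherin (201 to 273 CPM) were present in all 4 libraries, while EPCAM stood at 5.42 to 7.88 CPM and claudin 4 and ESRP1 near 1 CPM or below. The fibroblast markers COL1A2, COL3A1, PDGFRB and DCN, the immune markers PTPRC, CD3E and NKG7 and the endothelial markers PECAM1, VWF and CDH5 had no row. Of the 7 fibroblast markers, COL1A1, LUM and PDGFRA had rows and summed to 17.2 and 21.2 CPM in control KD against 26.4 and 28.6 CPM. These markers went in different directions. COL1A1 stood at 10.6 and 11.4 CPM against 17.3 and 19.4 CPM, and LUM at 3.98 and 7.22 CPM against 8.41 and 7.94 CPM. PDGFRA was lower in PSME4 KD, at 2.60 and 2.58 CPM against 0.723 and 1.31 CPM. Of the 6 immune markers, CD68 and CD14 summed to 33.8 and 28.5 CPM against 39.3 and 39.4 CPM. Of the 5 endothelial markers, ESAM and EGFL7 summed to 14.6 and 16.2 CPM against 12.6 and 14.7 CPM. The part of the fibroblast and immune sums, which did not overlap between the groups, in the values below was not tested. The listed hepatocyte markers summed to 1205 to 1745 CPM, nearly all from CPS1, with albumin at 1.12 to 2.03 CPM.

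UGT1A9, UGT1A6 and UGT1A1 transcripts stood 3.32-fold to 4.87-fold higher in PSME4 KD than in control KD cells, while UGT1A7 stood 1.33-fold lower. UGT1A9 was the most abundant member in every library. In bulk RNA, a higher level in each cell and a larger number of cells with the transcript cannot be told apart.

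UGT1A9 had 479 counts (41.4 CPM) in control KD 1, 793 (68.2 CPM) in control KD 2, 2832 (186 CPM) in PSME4 KD 1 and 2909 (191 CPM) in PSME4 KD 2. Both PSME4 KD libraries were above both control KD libraries. The mean went from 54.8 ± 18.9 CPM to 188 ± 3.44 CPM (SD, n = 2), a log2 fold change of 1.78 (SE 0.22) or 3.44-fold. The control KD libraries differed from each other by 0.72 on the log2 scale and the PSME4 KD libraries by 0.04.

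UGT1A6 had 37 counts (3.20 CPM) and 59 (5.07 CPM) in control KD 1 and 2, and 313 (20.6 CPM) and 302 (19.8 CPM) in PSME4 KD 1 and 2. The groups did not overlap. Its log2 fold change of 2.28 (SE 0.28), or 4.87-fold, took the mean from 4.14 ± 1.32 CPM to 20.2 ± 0.525 CPM (SD, n = 2). It was the member with the largest fold change of the 4 that passed the filter, at the lowest level in control KD cells.

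UGT1A1, the bilirubin-conjugating member, had 66 counts (5.71 CPM) and 57 (4.90 CPM) in control KD 1 and 2, and 236 (15.5 CPM) and 301 (19.8 CPM) in PSME4 KD 1 and 2. Here the control KD libraries lay close together and the PSME4 KD libraries differed more, by 0.35 on the log2 scale. The mean went from 5.31 ± 0.572 CPM to 17.6 ± 3.005 CPM (SD, n = 2), a log2 fold change of 1.73 (SE 0.27).

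UGT1A7 had 402 counts (34.8 CPM) and 602 (51.8 CPM) in control KD 1 and 2, and 484 (31.8 CPM) and 506 (33.2 CPM) in PSME4 KD 1 and 2. Both PSME4 KD libraries were below both control KD libraries, but PSME4 KD 2 and control KD 1 differed by less than the control KD libraries did from each other. The mean was 43.3 ± 12.01 CPM in control KD and 32.5 ± 0.998 CPM in PSME4 KD (SD, n = 2), a log2 fold change of −0.41 (SE 0.22). The plot of CPM by library shows the 4 genes side by side.

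**Figure D1:**
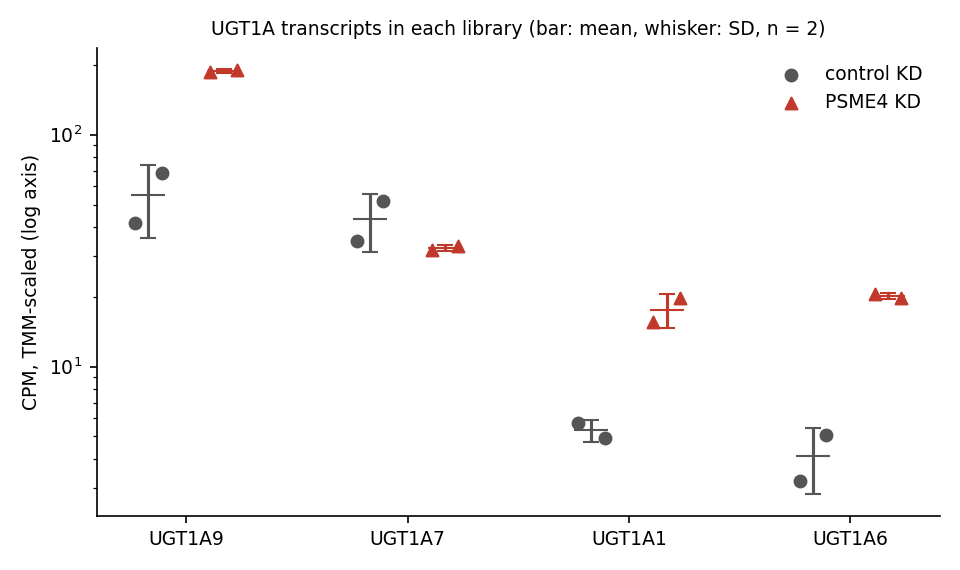
CPM (counts scaled to library size by TMM), on a log axis, of the 4 UGT1A genes that passed the count filter, 1 point per library, with the mean as a bar and the SD of the 2 libraries as a whisker. UGT1A9, UGT1A1 and UGT1A6 have both PSME4 KD libraries above both control KD libraries, and UGT1A7 has them slightly below.

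The other 3 members were near the detection limit and did not pass the filter. UGT1A3, which acts on bile acids among others, had 0 and 7 counts in control KD 1 and 2 and 4 and 9 in PSME4 KD 1 and 2. UGT1A5 had 0 and 0 against 1 and 6 counts, and UGT1A8 had 2 and 0 against 4 and 6. Together they held 9 control KD counts and 30 PSME4 KD counts. A count of 0 allows up to 3 counts, which is 0.255 CPM in the control KD libraries, so no fold is given for them. That UGT1A5 had no count in libraries where UGT1A9 had 479 and 793 shows that reads in the shared exons were not counted for every gene that holds them. The sources used here do not give how such reads were assigned. A read from the shared exons counted for a member need not come from that member's transcript, and its part in the values was not tested.

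The authors' deposited table, which divides control KD by PSME4 KD, gives log2 fold changes of −1.79 for UGT1A9, −2.29 for UGT1A6, −1.74 for UGT1A1 and 0.41 for UGT1A7.

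Where each read is counted once, the sum over the 7 members does not depend on which of them a shared read was given to. A shared read given to UGT1A4 or UGT1A10, which end at the same place, would be missing from it. The 7 members together held 986 counts (85.3 CPM) in control KD 1, 1518 (131 CPM) in control KD 2, 3874 (254 CPM) in PSME4 KD 1 and 4039 (265 CPM) in PSME4 KD 2. Both PSME4 KD libraries were above both control KD libraries. The mean was 108 ± 31.98 CPM and 260 ± 7.47 CPM (SD, n = 2), 2.41-fold higher in PSME4 KD. Without UGT1A9 the sum was 53.1 ± 13.1 CPM against 71.3 ± 4.03 CPM, 1.34-fold higher, so most of the added counts were those of UGT1A9.

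The make-up of the locus also differed between the groups. UGT1A9 took 48.6% of the UGT1A counts in control KD 1 (95% Clopper-Pearson interval 45.4% to 51.8%) and 52.2% in control KD 2 (49.7% to 54.8%), against 73.1% in PSME4 KD 1 (71.7% to 74.5%) and 72.0% in PSME4 KD 2 (70.6% to 73.4%). UGT1A7 took 40.8% and 39.7% against 12.5% in each PSME4 KD library, with intervals of 37.7% to 43.9%, 37.2% to 42.2%, 11.5% to 13.6% and 11.5% to 13.6%. UGT1A6 took 3.75% and 3.89% against 8.08% and 7.48%. UGT1A1 took 6.69% and 3.75% against 6.09% and 7.45%, so its shares overlapped between the groups. The intervals cover counting error only. Shares of a sum are tied to each other, so the higher UGT1A9 counts lower the share of UGT1A7, whose CPM was 1.33-fold lower. The stacked shares are plotted by library.

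**Figure D2:**
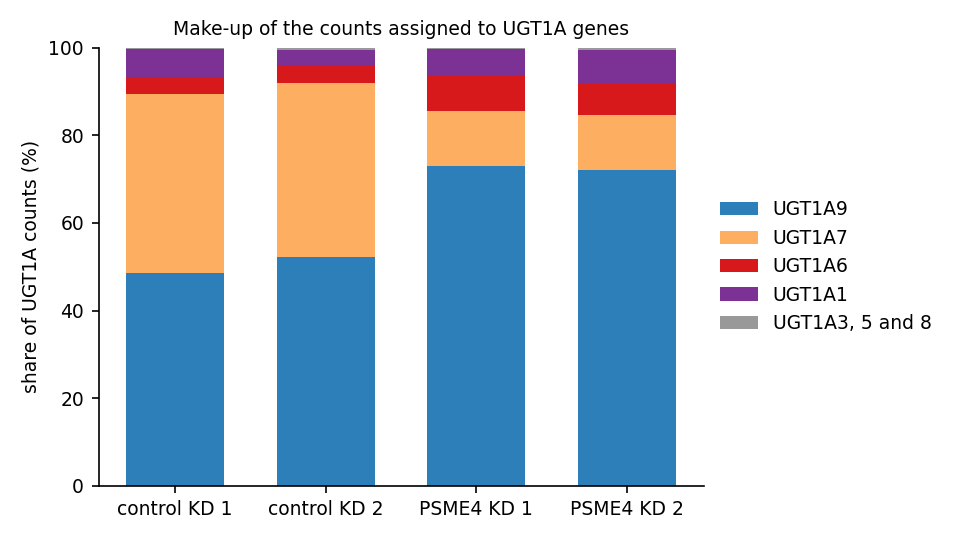
Share of all UGT1A counts, in percent, taken by each member in each of the 4 libraries (stacked bars from 0 to 100). UGT1A7 takes 40.8% and 39.7% in the control KD libraries and 12.5% in each PSME4 KD library, and UGT1A9 and UGT1A6 take more there. Shares are tied to each other and do not give a member's fold change.

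Ratios of members within a library, which no scaling between libraries can move, separated UGT1A7 from the other 3. The ratio of UGT1A9 to UGT1A7 counts was 1.19 and 1.32 in control KD 1 and 2, and 5.85 and 5.75 in PSME4 KD 1 and 2, a difference of 2.21 on the log2 scale. UGT1A6 stood to UGT1A7 at 0.0920 and 0.0980 against 0.647 and 0.597. UGT1A1 stood to UGT1A7 at 0.164 and 0.0947 against 0.488 and 0.595. In each ratio the 2 groups lay far apart compared with their libraries. The 3 members that stood higher kept closer ratios among themselves. UGT1A6 to UGT1A9 was 0.0772 and 0.0744 against 0.111 and 0.104, a log2 difference of 0.50. UGT1A1 to UGT1A9 was 0.138 and 0.0719 against 0.0833 and 0.103, with the PSME4 KD libraries inside the range of the control KD libraries. UGT1A6 to UGT1A1 also overlapped, at 0.561 and 1.04 against 1.33 and 1.00.

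To compare levels between members, CPM was divided by the length of each first exon, on the assumption that the counts come from there. On this scale of CPM per kilobase of first exon, the order in control KD cells was UGT1A9 (44.2 and 72.8), UGT1A7 (40.7 and 60.5), UGT1A1 (6.32 and 5.42), UGT1A6 (3.20 and 5.07) and then UGT1A3 (0 and 0.679), UGT1A8 (0.188 and 0) and UGT1A5 (0 and 0). UGT1A9 and UGT1A7 overlapped. In PSME4 KD cells UGT1A9 led at 199 and 204, followed by UGT1A7 at 37.2 and 38.8. UGT1A6 (20.6 and 19.8) and UGT1A1 (17.1 and 21.8) came next and overlapped, and UGT1A3, UGT1A8 and UGT1A5 were each below 0.7.

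UGT1A9, UGT1A6 and UGT1A7 differed between the control KD libraries in the same direction, with control KD 2 above control KD 1 by 0.72, 0.66 and 0.57 on the log2 scale, while UGT1A1 was lower there by 0.22. On log2 CPM with a prior count of 2, the difference of UGT1A9 was above that of 95.6% of the tested genes, and that of UGT1A6 above 94.0%. Across 12982 genes with a transcript in GENCODE 29, the difference between the control KD libraries fell with GC content (Spearman's rho −0.49), and the log2 fold change of PSME4 KD over control KD rose with it (rho 0.40). Genes are not independent replicates, and the libraries are shared by both values. The longest transcripts of the 4 members have 44.1% to 45.9% GC against a median of 47.7%. Their first exons alone have 45.1% (UGT1A6), 45.9% (UGT1A9), 46.5% (UGT1A7) and 52.0% (UGT1A1) GC. The correction below used whole transcripts, and one on the GC of first exons was not run. With each library corrected for its GC trend, the log2 fold change was 1.87 for UGT1A9, 2.38 for UGT1A6, 1.76 for UGT1A1 and −0.33 for UGT1A7.

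Which control KD library was kept changed the sizes more than the directions. Without control KD 1, the log2 fold change was 1.46 for UGT1A9, 1.99 for UGT1A6, 1.84 for UGT1A1 and −0.67 for UGT1A7. Without control KD 2, it was 2.19, 2.66, 1.63 and −0.09 in the same order. Leaving out PSME4 KD 1 or PSME4 KD 2 gave 1.80 and 1.80 for UGT1A9, 2.26 and 2.34 for UGT1A6, 1.90 and 1.57 for UGT1A1 and −0.38 and −0.41 for UGT1A7. The log2 fold change of the sum ranged from 0.99 without control KD 1 to 1.61 without control KD 2. These values are plotted for the 4 genes.

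**Figure D3:**
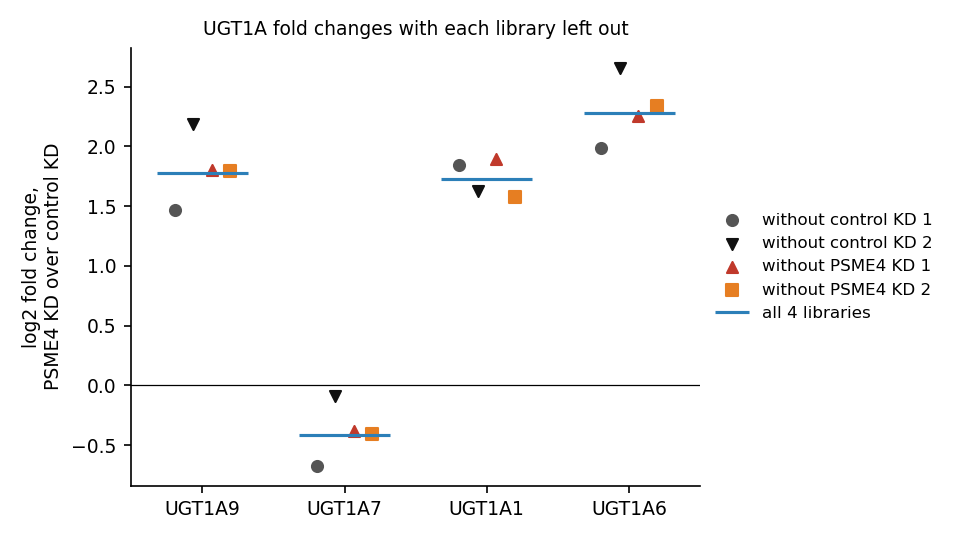
Log2 fold change of PSME4 KD over control KD for the 4 UGT1A genes, with all 4 libraries (line) and with each library left out (points). UGT1A9, UGT1A6 and UGT1A1 stay at 1.46 or above in every fit, and UGT1A7 lies between −0.67 and −0.09.

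Genes beside the locus were read to see whether the difference extended along the chromosome. Over the whole table, 10.6% of the 13497 genes tested passed an adjusted p of 0.05 in edgeR, 4.56% higher and 6.0% lower in PSME4 KD. Within 5 Mb of the locus, 51 genes were tested, 2 rose and 3 fell (9.80%), and their median log2 fold change was −0.06 against −0.0021 for all tested genes. On all of chromosome 2, 24 of 925 genes rose and 74 fell (10.6% called), with a median log2 fold change of −0.10.

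No tested gene within 1 Mb rose, and 2 of 14 fell (14.3% called, beside 10.6% of all tested genes and 6.0% lower). The median log2 fold change of these 14 genes was −0.27, beside −0.10 on chromosome 2 and −0.0021 for all tested genes. The small RNA SCARNA5, inside the span of ATG16L1, went from 17 and 11 counts to 1 and 8 (log2 fold change −2.00, SE 0.64, adjusted p = 0.0428, edgeR), and it did not pass with the GC correction (adjusted p = 0.0566) or with no filter on counts. The libraries were of polyadenylated RNA and nested genes may share reads. The part of ATG16L1 reads in the SCARNA5 counts was not tested. The direct neighbours did not pass. The deubiquitinase gene USP40, the nearest tested gene before the locus (at −0.051 Mb), stood at 38.4 and 46.9 CPM against 39.4 and 49.7 CPM. On the other side MROH2A, 2424 bases after the locus, had 19 and 13 counts against 9 and 10. HJURP, the chaperone of the centromeric histone, stood at 156 and 180 CPM against 120 and 126 CPM (log2 fold change −0.45, SE 0.19, adjusted p = 0.132, edgeR).

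The other tested genes within 1 Mb were EFHD1, GIGYF2, SNORC, NGEF, INPP5D, ATG16L1, DGKD, MSL3P1 and TRPM8, with log2 fold changes from −1.38 (TRPM8, from 7 to 18 counts per library) to 0.22 (GIGYF2). SNORC, a cartilage proteoglycan, was at −0.81 (SE 0.27, adjusted p = 0.0557, edgeR) and passed with the GC correction (−0.99, adjusted p = 0.0148).

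Further out, HTR2B and ACKR3 rose. ACKR3, a scavenger receptor for the chemokine CXCL12, lies 2.76 Mb beyond the locus and went from 5.62 and 10.1 CPM to 34.4 and 36.2 CPM (log2 fold change 2.17, SE 0.26, adjusted p = 3.10e-06, edgeR). HTR2B, a serotonin receptor, went from 17 and 14 counts to 116 and 118 (2.51, SE 0.36, adjusted p = 3.53e-05, edgeR). HTR2B lies within the span of PSMD1, a subunit of the proteasome's regulatory particle, whose transcript fell from 388 and 260 CPM to 175 in each PSME4 KD library (−0.89, SE 0.21, adjusted p = 0.00671, edgeR). ACKR3 and HTR2B passed in all 4 fits with 1 library left out. PSMD1 passed only without control KD 2 (−1.14), and SCARNA5 (−3.99 to −1.19) in none. Of the 5 called neighbours, 2 to 3 passed in a fit with 1 library left out.

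**Figure D4:**
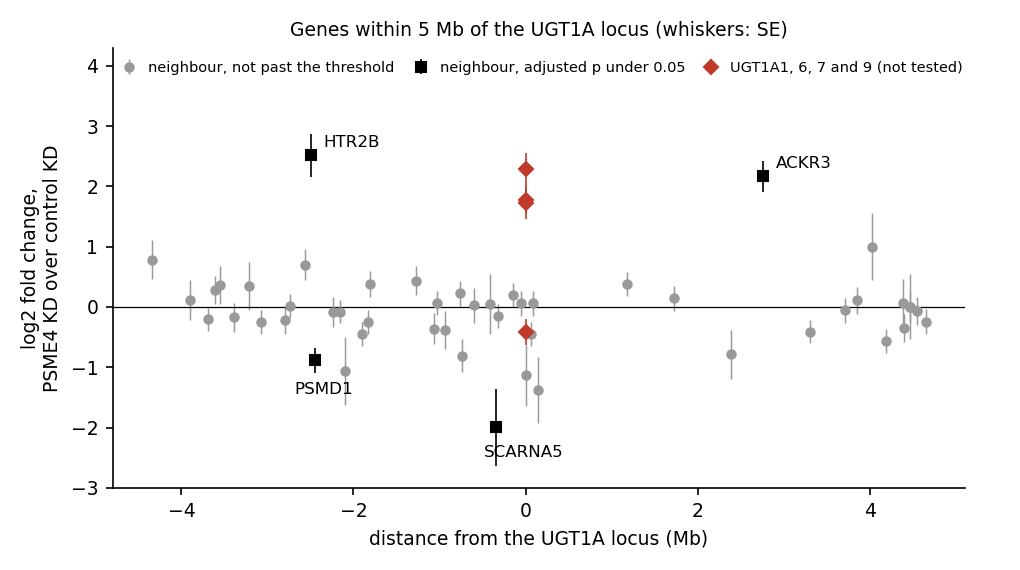
Log2 fold change of PSME4 KD over control KD, with its SE, for 50 of the 51 tested genes within 5 Mb of the UGT1A locus, by distance in Mb, and for UGT1A1, UGT1A6, UGT1A7 and UGT1A9, all drawn at 0. Squares mark 4 of the 5 neighbours past the threshold, HTR2B and ACKR3 above 0 and PSMD1 and SCARNA5 below, and the neighbours next to the locus lie near or below 0.

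Transcripts of factors known to act on UGT1A promoters were read from a list of 38 regulators, of which 33 were in the table and tested. In PSME4 KD cells 6 rose, 2 fell and 25 did not pass, so 24.2% were called beside 10.6% of all tested genes, and the median log2 fold change of the list was 0.32 beside −0.0021. The members that rose include the nuclear receptors PPARA and HNF4A and the coactivator PPARGC1A.

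PPARGC1A, which coactivates both of these receptors, went from 4.41 and 6.54 CPM to 16.6 and 20.3 CPM (log2 fold change 1.75, SE 0.27, adjusted p = 0.000121, edgeR). PPARA, a receptor for fatty acids and fibrates, went from 10.8 and 11.95 CPM to 25.2 and 26.6 CPM (1.18, SE 0.23, adjusted p = 0.00184, edgeR). HNF4A, a liver-enriched receptor, went from 23.0 and 19.2 CPM to 35.1 and 45.3 CPM (0.93, SE 0.22, adjusted p = 0.00819, edgeR). In each of the 3 genes both PSME4 KD libraries were above both control KD libraries. The 3 genes were called on these same libraries, so the separation adds no support. Its share over all tested genes was not counted.

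NR1H3, the oxysterol receptor LXR alpha, was named after its values were seen and rose by 0.91 on the log2 scale (SE 0.27, adjusted p = 0.0289, edgeR), from 1.58 without control KD 1 to 0.46 without control KD 2.

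Both regulators that fell were small MAF proteins, the DNA-binding partners of NRF2 that lack an activation domain. MAFK went from 69.5 and 61.7 CPM to 20.7 and 37.0 CPM (log2 fold change −1.18, SE 0.23, adjusted p = 0.00167, edgeR), and MAFF from 40 and 30 counts to 11 and 11 (−2.05, SE 0.44, adjusted p = 0.00385, edgeR). The third, MAFG, was at −0.07 (SE 0.21, adjusted p = 0.879, edgeR).

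The aryl hydrocarbon receptor AHR stood at 41.9 and 90.4 CPM in the control KD libraries and at 72.7 and 63.3 CPM in the PSME4 KD libraries, which lay inside the control KD range (log2 fold change 0.04, SE 0.24). Its partner ARNT was at 0.45 (SE 0.21, adjusted p = 0.175, edgeR). NFE2L2, which encodes NRF2, stood at 194 and 297 CPM against 358 and 343 CPM (0.51, SE 0.21, adjusted p = 0.109, edgeR). FOXA1 (0.01, SE 0.20) and FOXA2 (−0.08, SE 0.24) showed no difference beyond their SE, and PPARG was at 0.55 (SE 0.19, adjusted p = 0.0634, edgeR), past the threshold with the GC correction (0.64, adjusted p = 0.0175). The xenobiotic receptors NR1I2 (PXR) and NR1I3 (CAR), and CDX2, RXRG and ESR1, had no row.

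With 1 library left out, 0 and 1 regulators passed where control KD 1 or control KD 2 was absent, and 1 and 4 where PSME4 KD 1 or PSME4 KD 2 was. PPARGC1A passed in 3 of these fits, missing it without control KD 1 (log2 fold change 1.49), PPARA only without PSME4 KD 2 (1.17), and HNF4A (0.76 to 1.11), NR1H3 and MAFF (−2.24 to −1.83) in none. MAFK (−1.64) passed only without PSME4 KD 2, and without PSME4 KD 1 it was at −0.82.

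**Figure D5:**
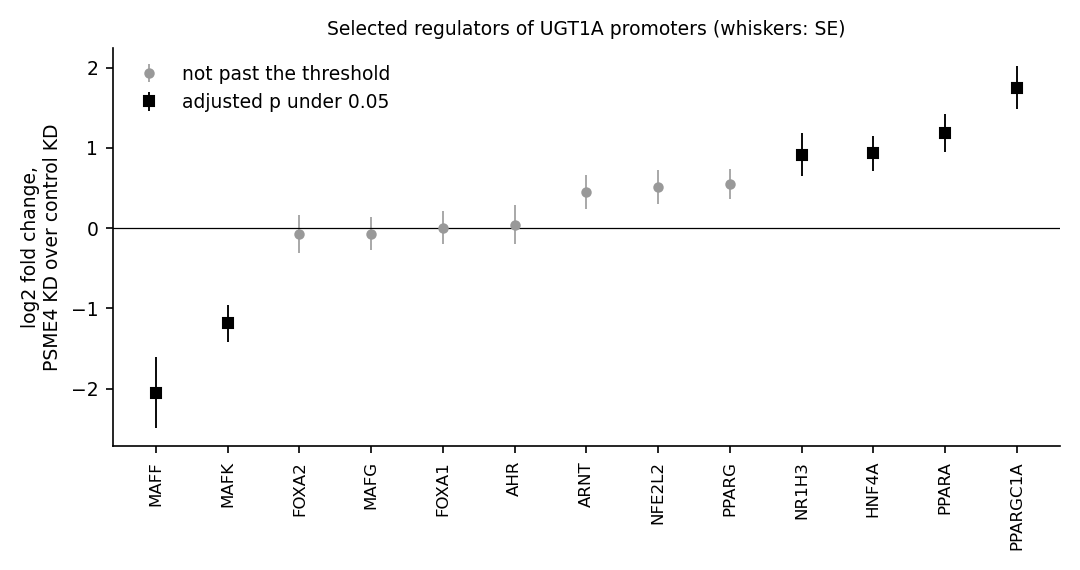
Log2 fold change of PSME4 KD over control KD, with its SE, for 13 of the 33 tested regulators of UGT1A promoters, in order of fold change. Squares passed an adjusted p of 0.05, 2 below 0 (MAFF, MAFK) and 4 above, with PPARGC1A at the top. The drawn genes are a selection that does not show the share called: of all 33, 6 rose, 2 fell and 25 did not pass.

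Genes known as targets of these factors were counted next. Of 14 listed targets of the aryl hydrocarbon receptor, 11 were tested, none rose and 3 fell (27.3% called, beside 10.6% of all tested genes and 6.0% lower), with a median log2 fold change of 0.20. The listed targets CYP1A1, CYP1A2 and SERPINB2 had no row, so they could not be read. CYP1B1, a cytochrome P450 of this receptor's battery, went from 20.4 and 27.9 CPM to 10.4 and 9.71 CPM (−1.27, SE 0.24, adjusted p = 0.00133, edgeR). The growth factor EREG fell by 1.06 (SE 0.20, adjusted p = 0.00136, edgeR) and the secreted glycoprotein STC2 by 0.86 (SE 0.23, adjusted p = 0.0178, edgeR). SLC7A5, an amino acid transporter, was at 0.48 (SE 0.19, adjusted p = 0.102, edgeR). CYP1B1 passed in 2 fits, at −1.48 (control KD 1 absent) and −1.19 (PSME4 KD 2 absent), and EREG (−1.24 to −0.87) and STC2 (−1.05 to −0.64) passed in no fit with 1 library left out.

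Of 35 listed NRF2 targets, all were tested, 2 rose and 1 fell (8.57% called, beside 10.6% of all tested genes), with a median log2 fold change of 0.09. The pentose phosphate enzyme TKT went from 762 and 641 CPM to 1528 and 1202 CPM (0.96, SE 0.20, adjusted p = 0.00340, edgeR), and TRIM16L rose by 0.67 (SE 0.20, adjusted p = 0.0282, edgeR). PIR, an iron-binding nuclear protein, went from 49.5 and 29.1 CPM to 16.5 and 18.9 CPM (−1.15, SE 0.24, adjusted p = 0.00297, edgeR). TRIM16 (0.60, adjusted p = 0.0502) and the epoxide hydrolase EPHX1 (0.59, adjusted p = 0.0580) did not pass in edgeR. Under 6 of the alternative settings other than leaving out a library, 5 or 6 of these targets passed. TKT passed only without PSME4 KD 2 (1.15) and TRIM16L (0.51 to 0.86) in no fit with 1 library left out. PIR passed without control KD 2 (−1.48) and PSME4 KD 2 (−1.23), and missed it at −0.72 (control KD 1 absent) and −1.05 (PSME4 KD 1 absent).

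Of 20 listed targets of PPARA and genes of fatty acid oxidation, 15 were tested, none rose and 1 fell (6.67% called, beside 10.6%), with a median log2 fold change of 0.10. The 1 that fell, the fatty acid hydroxylase CYP4F2, had 20 and 16 counts against 8 and 8 (−1.55, SE 0.51, adjusted p = 0.0471, edgeR), and it did not pass by limma voom, with no filter on counts or in any fit with 1 library left out (−1.70 to −1.38). PDK4, a kinase that restrains glucose oxidation, stood at 248 and 379 CPM against 234 and 187 CPM (−0.57, SE 0.21, adjusted p = 0.0766, edgeR).

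Of 16 listed targets of PXR and CAR, 7 were tested, none rose and 1 fell (14.3% called, beside 10.6%). CYP3A5, a drug-oxidising cytochrome P450, went from 24.1 and 20.8 CPM to 9.06 and 14.8 CPM (log2 fold change −0.91, SE 0.25, adjusted p = 0.0199, edgeR), and of the fits with 1 library left out it passed only without PSME4 KD 2 (−1.28; without PSME4 KD 1 it was −0.60). The efflux pump ABCB1 was at 0.57 (SE 0.27, adjusted p = 0.172, edgeR) and the P450 reductase POR at 0.60 (SE 0.24, adjusted p = 0.107, edgeR).

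Of 30 listed liver genes, known as targets of HNF4A and other liver-enriched factors, 20 were tested, 1 rose and 2 fell (15% called, beside 10.6%), with a median log2 fold change of 0.31. APOH, a plasma apolipoprotein, went from 76.4 and 54.9 CPM to 110 and 119 CPM (0.81, SE 0.20, adjusted p = 0.0126, edgeR). FGG, the fibrinogen gamma chain, went from 92.7 and 79.9 CPM to 27.3 and 27.0 CPM (−1.67, SE 0.21, adjusted p = 4.29e-06, edgeR) and passed with any library left out. The tetraspanin-like TM4SF4 fell by 0.64 (SE 0.21, adjusted p = 0.0436, edgeR), but not with the GC correction (−0.48, adjusted p = 0.142) or by DESeq2. APOH (0.59 to 1.06) and TM4SF4 (−0.86 to −0.41) passed in no fit with 1 library left out.

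Genes that supply or use the sugar donor or its precursor were called in both directions, and the 1 that fell is a hydrolase. Of 14 listed genes that make, carry or consume UDP-glucuronic acid, all were tested, 2 rose, 1 fell and 11 did not pass (21.4% called, beside 10.6%), with a median log2 fold change of −0.02. Hexokinase HK1 went from 26.0 and 29.1 CPM to 42.4 and 49.0 CPM (0.73, SE 0.21, adjusted p = 0.0257, edgeR). NUDT14, a UDP-glucose hydrolase, had 140 and 72 counts against 68 and 71 (−1.002, SE 0.31, adjusted p = 0.0391, edgeR), and it did not pass by DESeq2 or limma voom and its fold change was −0.44 with control KD 1 absent and −1.40 with control KD 2 absent. UGP2, which makes UDP-glucose, stood at 268 and 246 CPM against 198 and 178 CPM (−0.45, SE 0.19, adjusted p = 0.1253, edgeR), and PGM1 was at −0.42 (SE 0.20, adjusted p = 0.172, edgeR). With 1 library left out, none of the 14 genes passed, except 1 without PSME4 KD 2.

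Of the other UDP-glycosyltransferases and relatives, 14 were listed, 8 had a row and 6 were tested, and 1 of these fell (16.7% called, beside 10.6%). UGT8, which adds galactose to ceramide, had 86 and 117 counts (7.44 and 10.1 CPM) against 15 and 22 (0.985 and 1.44 CPM), a log2 fold change of −2.84 (SE 0.36, adjusted p = 5.88e-06, edgeR), and passed with any library left out. The steroid-conjugating UGT2B15 had 15 and 18 counts against 44 and 37 (0.90, SE 0.41, adjusted p = 0.154, edgeR), and UGT2A3 had 14 and 10 against 30 and 29 (0.90, SE 0.45, adjusted p = 0.201, edgeR). Both tested UGT2 genes named here were thus at few counts and did not pass.

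Among the 9993 genes that averaged 5 CPM or more, those whose profile over the 4 libraries was most like that of the summed UGT1A counts were PDE8B, ETS2, TAGLN, TP63, ZNF608, MGAM, HELZ and PTGES. Likeness was the Euclidean distance between log2 CPM profiles centred on their mean, which was 0.13 for PDE8B and 0.26 for PTGES, over 4 libraries only. PDE8B, a cyclic AMP phosphodiesterase, stood at 6.75 and 11.2 CPM against 23.1 and 23.0 CPM. ETS2, a transcription factor, stood at 57.6 and 76.6 CPM against 160 and 165 CPM. TP63, a p53 family member, stood at 8.65 and 11.2 CPM against 23.0 and 25.5 CPM. In each, control KD 2 was above control KD 1 and the PSME4 KD libraries were close together, which is the profile they were chosen for.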

How the data were processed

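Polyadenylated RNA was extracted from A549 cells with Trizol and chloroform and libraries were built with Lexogen's SENSE mRNA-Seq kit, per the labels' protocols. Groups and replicate numbers are those of the sample titles. The tools named in the submitters' processing notes are cutadapt, STAR and DESeq2 with the build hg38, and the sources used here give no read counter, strand setting, annotation or version. The deposited table holds whole-number counts per gene with no normalisation, per the file headers. Its signal values, deposited by the authors as normalised counts, equal the counts divided by 1 factor per library. Its log2 values, a regularised log per the file headers, and the p-values deposited by the authors were not used. The largest count of every row was at least 6, so low genes had been removed before deposit.

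The main analysis of these counts used edgeR 4.0.16 under R 4.3.3 (filterByExpr, 13497 of 15037 genes; TMM; glmQLFit and glmQLFTest on the 4 libraries, group being the sole term). P-values were adjusted by Benjamini-Hochberg over all tested genes with a threshold of 0.05. A standard error is the log2 fold change over the root of its F statistic. The members, the 11 gene lists (234 genes, 189 in the table, 180 tested) and the named genes were chosen with earlier results of these data known. Named were, per list, up to 6 genes past the threshold and up to 2 others by smallest p, set regulators, all tested genes within 1 Mb of the locus, the called ones within 5 Mb, and the 8 genes most like the locus. A few genes picked this way are left out of the text and of 2 plots, but stay in the counts. Counting noise was exceeded between the libraries of each group (chi-square over its degrees of freedom 22.3 in control KD, 18.0 in PSME4 KD), and the biological coefficient of variation was 15.3%.

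First exons and GC content are from GENCODE 29 on GRCh38, and gene positions and promoter windows from RefSeq on GRCh38.p14, the assembly of hg38. Identity is over a pairwise alignment made with Biopython 1.88. The GC correction removes each library's lowess trend (span 0.4) along the GC content of a gene's longest transcript, known for 96.2% of tested genes, through an offset in edgeR. The other alternatives were DESeq2's size factors, library size only, DESeq2 1.42.0, limma voom (limma 3.58.1), no filter, a block for the replicate number, a minimum of 50 counts in 2 libraries, each library left out, a threshold of 0.10, a 2 Mb window and other prior counts. The main edgeR fit was run on simulated counts, and the alternatives were not. Antisense and nested genes may share reads, as no source says if counting used strand.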

Additional observations from a re-analysis of the deposited data

How the results depend on the processing

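UGT1A9, UGT1A6 and UGT1A1 stayed higher and UGT1A7 lower in PSME4 KD under every scaling, filter, tool, prior count and GC setting run. The UGT1A sum, not run with limma voom, another prior count or the replicate block, stayed higher under the others. With 1 library left out, the log2 fold change ranged from 1.46 to 2.19 for UGT1A9, 1.99 to 2.66 for UGT1A6, −0.67 to −0.092 for UGT1A7 and 0.99 to 1.61 for the sum. The number of genes called, 1426 of all tested (616 higher, 810 lower), depended on the libraries: it was 43 to 281 with 1 left out (53 and 94 with control KD 1 or control KD 2 absent, 43 and 281 with PSME4 KD 1 or PSME4 KD 2 absent). In an alternative chosen after seeing the data, which kept the gene filter of all libraries, it was 0 with control KD 1 absent, 1077 with control KD 2 absent, 268 with PSME4 KD 1 absent and 0 with PSME4 KD 2 absent. The cause was not tested, beyond the smaller number of libraries and the residual degrees of freedom, 1 in place of 2, with the lone library assumed to vary like the other group. A threshold of 0.10 gave 2240 genes. Scaling by library size only called 853 higher and 764 lower, the GC correction 564 and 705, sharing 933 genes with the calls above.

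In the fits with 1 library left out, list counts ranged from 0 to 1 for UDP-glucuronic acid supply (3 with all libraries), 0 to 4 for regulators (8), 0 to 1 for AHR targets (3), 0 to 1 for PXR and CAR targets (1), 0 to 2 for NRF2 targets (3), 0 to 0 for PPARA targets (1), 1 to 1 for liver genes (3), 0 to 1 for conjugating enzymes (4), 0 to 0 for transporters (1), 0 to 2 for heme genes (3) and 2 to 3 for neighbours of the locus (5). NRF2 targets numbered 6 with library size only and DESeq2, and 5 with limma voom, with at least 50 counts and with the GC correction. PPARA targets numbered 0 by DESeq2, limma voom and with no filter, and 2 with the GC correction. Within 2 Mb of the locus, 2 of 22 tested neighbours were called (9.09%, beside 10.6% of all tested genes).

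Sign changes were limited to genes that did not pass. With the GC correction, DGKD was at −0.032, FOXA1 at −0.10, INPP5D at −0.17 and NGEF at −0.19. With 1 library left out, AHR ranged from −0.41 to 0.71, FOXA1 from −0.13 to 0.17, FOXA2 from −0.20 to 0.069, INPP5D from −0.069 to 0.19, NGEF from −0.16 to 0.26 and USP40 from −0.082 to 0.22. Of the 36 genes called under the naming rule, 30 of 32 with a value kept the call by DESeq2, 34 by limma voom, 34 with no filter and 29 with the GC correction, but only 5 to 17 with 1 library left out (5 with control KD 1 absent, 7 with control KD 2, 5 with PSME4 KD 1 and 17 with PSME4 KD 2).

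With the replicate number as a block, 1554 genes were called and 5 NRF2 targets. Deviations of libraries with the same number did not correlate (r = −0.043 over 8748 genes), so the numbers are not shown to pair the libraries. No named call was lost with the block. With 2 libraries a group, few-count members such as UGT1A3, UGT1A5 and UGT1A8 cannot be compared at this depth.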

Other observations

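Other conjugating enzymes moved in both directions. Of 36 listed sulfotransferases, glutathione transferases and other conjugating enzymes, 24 were tested, 3 rose and 1 fell (16.7% called, beside 10.6% of all tested genes, 4.56% higher and 6.0% lower), with a median log2 fold change of −0.05. GSTP1, the main glutathione transferase of many epithelial tumours, went from 185 and 190 CPM to 362 and 314 CPM (0.85, SE 0.19, adjusted p = 0.00595, edgeR). MGST3, a microsomal glutathione transferase, rose by 0.65 (SE 0.20, adjusted p = 0.0356, edgeR), and GSTZ1 by 0.79 (SE 0.24, adjusted p = 0.0370, edgeR; 0.66 and 0.0542 with the GC correction). GSTM2 had 42 and 37 counts against 16 and 22 (−1.44, SE 0.40, adjusted p = 0.0200, edgeR). With 1 library left out, GSTP1 passed only without PSME4 KD 2 (0.98), and MGST3 (0.44 to 0.85), GSTZ1 (0.64 to 0.95) and GSTM2 (−1.66 to −1.23) in none.

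Transporters that carry glucuronides were called at 1 of 15 tested (6.67%, beside 10.6% of all tested genes). SLCO1B3, an uptake transporter for conjugated bile pigments, had 191 and 122 counts against 109 and 64 (log2 fold change −1.25, SE 0.30, adjusted p = 0.00778, edgeR; −1.68 to −0.89 and past the threshold in none of the fits with 1 library left out). Of 15 genes of heme and bilirubin metabolism, which supply the substrate of UGT1A1, 2 rose and 1 fell (20% called, beside 10.6%). UROD, a heme synthesis enzyme, went from 13.5 and 13.8 CPM to 31.7 and 21.5 CPM (0.96, SE 0.24, adjusted p = 0.0112, edgeR), and passed only without PSME4 KD 2 when 1 library was left out (0.66 without PSME4 KD 1). BLVRB, a biliverdin reductase, went from 83.6 and 104 CPM to 209 and 140 CPM (0.89, SE 0.21, adjusted p = 0.00776, edgeR), but not past the threshold with the GC correction (0.63, adjusted p = 0.0624) or when control KD 1 (0.74), control KD 2 (1.07) or PSME4 KD 1 (0.58) was left out. UROS, which acts just before UROD, fell by 0.74 (SE 0.20, adjusted p = 0.0208, edgeR), in no fit past the threshold with 1 library left out (−0.87 to −0.58).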
